A study of Mus musculus with 18 samples.

Results

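The MYC, MAX and MXD network was followed in OT-I CD8+ T cells that had been stimulated with peptide once or repeatedly and then treated with ibrutinib or DMSO. Its members were chosen by mouse gene symbol, matched to the Ensembl identifiers of the expression tables. They were *Myc*, *Mycn*, *Max*, *Mxd1*, *Mxd3*, *Mxd4*, *Mxi1* (also called MXD2), *Mnt* and *Mlx*, 9 of the 45706 genes in the tables, and all 9 passed the filter on low counts. OT-I mice carry a transgenic T cell receptor that recognizes a peptide of ovalbumin, and ibrutinib is an inhibitor of the kinase BTK that also binds other kinases. Single peptide stimulated cells met the peptide at the start of the culture only. Repeat peptide stimulated cells received it daily for 5 days at 10 ng/ml, with IL-15 and IL-7. From day 5 to day 8 both kinds of cells were given 1 µM ibrutinib or DMSO. According to the methods, the peptide stayed in the medium of repeat peptide cells during the ibrutinib treatment, so that drug and peptide were present together. RNA from live CD8+ T cells was sequenced on day 8.

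The 18 libraries were 5 of single peptide cells with DMSO, 4 of single peptide cells with ibrutinib, 4 of repeat peptide cells with DMSO and 5 of repeat peptide cells with ibrutinib. The experiments are lettered here. Each group had libraries of experiments A to D, the repeat peptide ibrutinib group also had one of E, and the single peptide DMSO group also had one of F. The labels give the strain of all cultures as OT-1 mice WT, whereas the genotype entry reads btk KO with a number for experiments B to E. For experiment A the entry reads INHB with a number and the words left over. For experiment F it reads PKC igoni with a number. The paper describes this RNA-seq without *btk* deficient cells, so these entries were read as names of experiments. *Btk* itself had 0 to 27 expected counts per library and was highest in the repeat peptide DMSO cells, at 8 to 27.

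Proteins of the network carry a basic helix-loop-helix leucine zipper and bind DNA as pairs. MAX is the common partner. MYC and MYCN paired with MAX recruit coactivators to E-box sequences and raise the transcription of genes for growth, metabolism and cell division. MXD1, MXI1, MXD3, MXD4 and MNT paired with MAX bind the same sequences but recruit SIN3 corepressors with histone deacetylases. MLX pairs with the glucose-responsive factors MLXIP and MLXIPL and also with MXD1, MXD4 and MNT, and so links the network to glucose sensing. In CD8+ T cells, *Myc* is induced by T cell receptor signals and supports the metabolic switch that precedes division.

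The canonical E-box that MYC and MXD pairs with MAX bind, CACGTG, was also searched for in the members' own promoters, because the network is known to act on genes of its own members. RefSeq windows on GRCm38.p6, from 250 bases before to 50 bases after a start site, were matched by symbol for 8 members, all but *Myc*. The hexamer is its own reverse complement, so a match counts for both strands. It was present in 4 of these 8 members, compared with 8.09% of all 27025 genes with a window and 11.8% of the 9529 genes with a window that were tested here. The gene lists described below held it as well. Of listed genes with a window, it was in 7 of 18 of metabolism and translation and 5 of 20 of ribosome biogenesis. It was in 2 of 7 cell cycle genes and 2 of 10 genes listed as repressed by MYC. It was in 1 of 3 MLX targets and 1 of 9 genes of the rest of the network. By window it was present in 4 of the members' 10, compared with 7.15% of all 32851. Each match is shown on the strand of its gene with 12 bases on either side and the hexamer in capitals, as a description of the letters and not as a measured binding site.
Mxd4, chr5:34187912-34187941, minus strand: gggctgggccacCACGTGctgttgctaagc
Mnt, chr11:74830789-74830818, plus strand: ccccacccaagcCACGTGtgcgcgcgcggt
Mlx, chr11:101087238-101087267, plus strand: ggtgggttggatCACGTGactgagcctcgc
Max, chr12:76962234-76962263, minus strand: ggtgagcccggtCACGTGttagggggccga
Counted in bases from the start site, with negative positions before it, the hexamer lay at -219 to -214 for *Mxd4*, at -123 to -118 for *Mnt* and at -40 to -35 for *Mlx*, and it spanned the start of *Max*. The windows of *Mycn*, *Mxd1* and *Mxd3* and the 3 windows of *Mxi1* did not hold these letters. Of the genes with the hexamer, *Mnt* was called in comparisons of stimulation, *Mxd4* only with a block, with DESeq2 or with a library left out, and *Max* and *Mlx* in none, as given in what follows.

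Libraries held 23445922 to 51995372 expected counts in all. The 8 markers of CD8 T cells (*Cd3d*, *Cd3e*, *Cd3g*, *Cd247*, *Cd8a*, *Cd8b1*, *Lck* and *Zap70*) summed to 3038 to 4179 TPM, a level scaled by transcript length and by the total of the library. The 15 markers of other cells summed to 1.23 to 9.51 TPM, with *Cd4* at most at 0.17 and *Hbb-bs* at 0 in all 18 libraries. The highest of these markers was *Foxp3*, which reached 8.49 TPM in a single peptide ibrutinib library and at most 1.02 TPM in any repeat peptide library. These are bulk libraries, in which fewer cells of a type and less RNA per cell cannot be told apart.

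Per transcript length, *Myc* was the most abundant member in all 4 groups. Its mean level was 227 TPM in single peptide DMSO cells, 198 with ibrutinib, 169.6 in repeat peptide DMSO cells and 152 with ibrutinib, above 93.8% to 96.4% of the tested genes. *Max* followed at group means of 67.4 to 84.3 TPM. Among the repressors, *Mxd4* had the highest mean level in the single peptide groups (40.4 TPM with DMSO and 52.7 with ibrutinib) and with repeat peptide and ibrutinib (49.8 TPM). In repeat peptide DMSO cells *Mxd3* and *Mxd4* had nearly the same mean level, 35.8 and 35.7 TPM. *Mlx* lay at 28.8 to 34.5 TPM and *Mnt* at 14.8 to 22.8 TPM. *Mxd1* (4.42 to 5.85 TPM) and *Mycn* (0.475 to 3.23 TPM) were low throughout, and *Mxi1* ranged more widely, from 4.21 to 14.5 TPM. These TPM values were compared between genes, and the values that follow, called normalized counts, were compared only between groups of the same gene. Statements that groups of a member do not overlap refer to normalized counts, and several did not hold in TPM. There *Mxi1* overlapped between single peptide DMSO (up to 4.95) and ibrutinib cells (from 4.07). *Mnt* overlapped between single (from 13.97) and repeat peptide DMSO cells (up to 16.39). *Mycn* overlapped between repeat peptide ibrutinib (up to 2.59) and DMSO cells (from 2.47), and *Mxd4* between the single peptide groups.

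**Figure D1:**
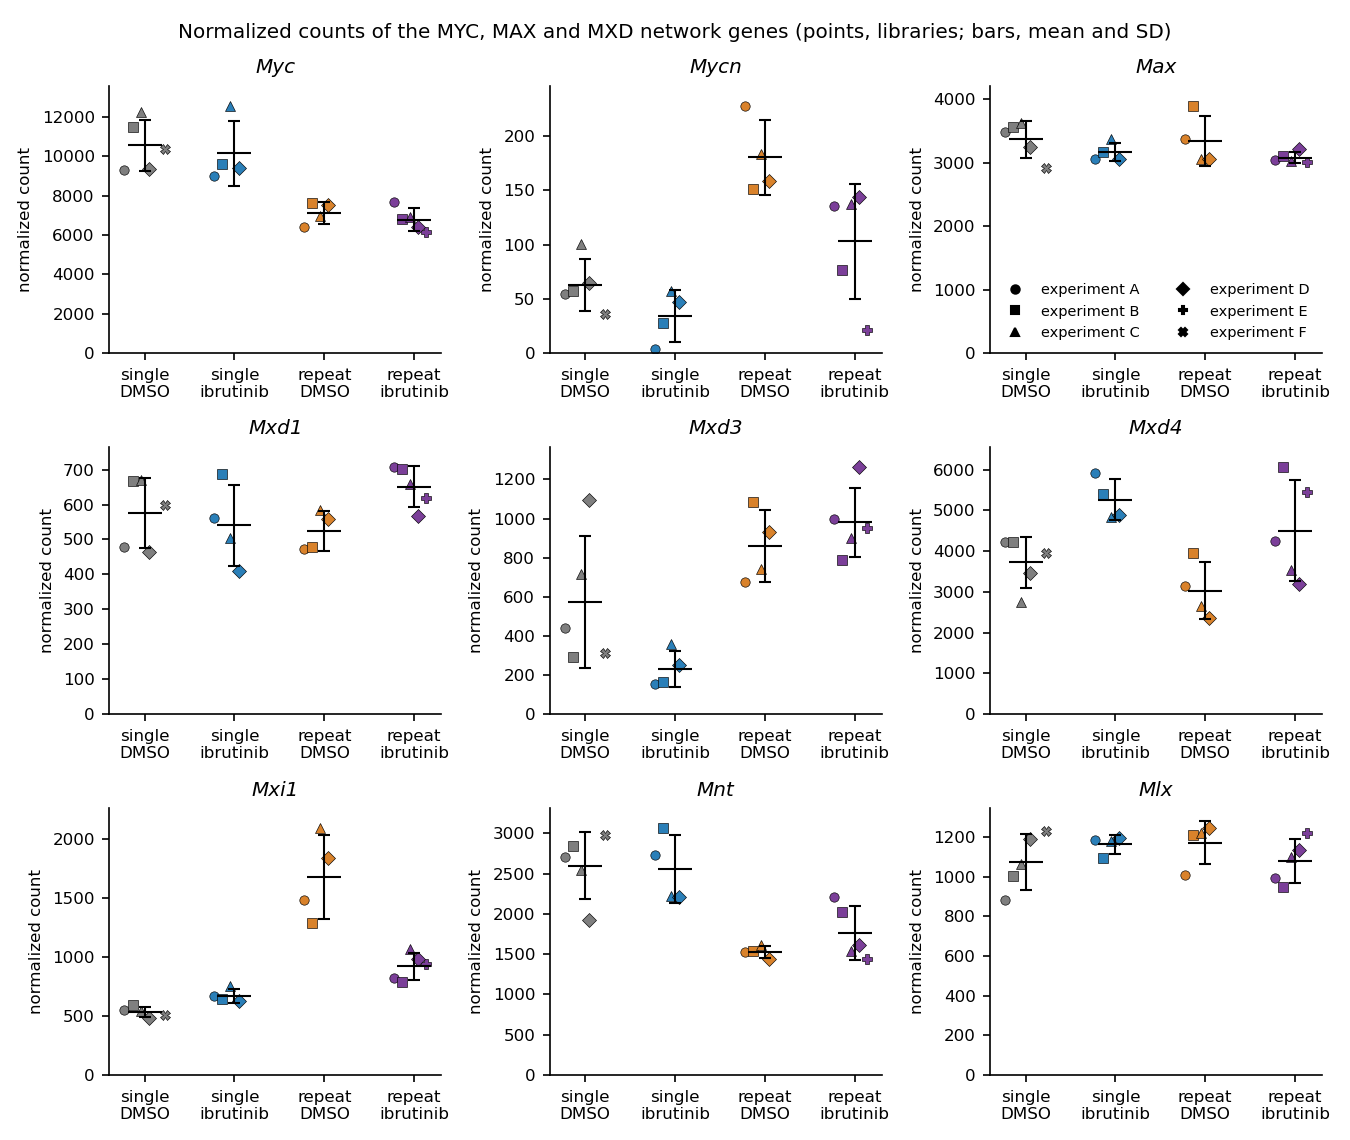
Normalized counts (y axes, from 0) of the 9 members in the 4 groups (x axes), where each point is a library, its shape is the experiment, and the bars are the group mean and SD. *Mxi1* is the only member whose 4 groups do not overlap with their neighbours on this scale, with means of 534, 670.2, 919 and 1676, whereas *Max* stays between 2911 and 3896 in all libraries. Among all genes tested, 6.39%, 34.3% and 10.1% did not overlap between these neighbours, in the order of the means.

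Repeat compared with single peptide stimulation, both with DMSO, shows how the network stood in repeatedly stimulated cells. *Mxi1* and *Mycn* were higher, *Myc* and *Mnt* were lower, and *Max*, *Mlx*, *Mxd1*, *Mxd3* and *Mxd4* were not called. A gene was called when its adjusted p was below 0.05 in edgeR's quasi-likelihood test, its mean normalized count was at least 50 and its log2 fold change was beyond 0.2 in either direction. By this rule 4 of the 9 members were called, 2 in each direction, where 47% of all 12255 genes tested were called, so the share of members was near that of all genes. The median log2 fold change was -0.01 over the members and 0.00 over all genes.

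*Mxi1* encodes an MXD repressor that pairs with MAX. Its normalized count in single peptide DMSO cells was 553, 589.5, 542, 481 and 506 in experiments A, B, C, D and F. In repeat peptide DMSO cells it was 1483, 1291, 2093 and 1838 in experiments A to D. Every repeat peptide library lay above every single peptide library. The means of 534 ± 42.0 (SD, n = 5) and 1676 ± 358 (n = 4) gave a fitted log2 fold change of 1.65 (SE 0.131, edgeR adjusted p = 1.53e-08). Within experiments A to D the log2 difference was 1.42, 1.13, 1.95 and 1.93.

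*Myc* moved the other way. Its normalized count was 9320, 11480, 12270, 9368 and 10360 in single peptide DMSO cells of experiments A, B, C, D and F. It was 6415, 7624, 6966 and 7535 in repeat peptide DMSO cells of experiments A to D. The ranges did not overlap, and *Myc* was lower in 4 of 4 experiments. This held for normalized counts only. In TPM the ranges overlapped, and experiment D had 163.52 in single peptide and 173.35 in repeat peptide DMSO cells. The fitted log2 fold change was -0.57 (SE 0.113, edgeR adjusted p = 0.000404), so that *Myc* RNA fell by 32.4%.

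*Mycn*, which encodes a MYC protein better known from embryonic and neural tissue, was rare in every group. It had 54.7, 57.3, 101, 64.8 and 35.8 normalized counts in single peptide DMSO cells (A, B, C, D and F) and 228, 151, 183 and 159 in repeat peptide DMSO cells (A to D). The ranges did not overlap here either. *Mycn* rose by a log2 fold change of 1.52 (SE 0.511, edgeR adjusted p = 0.0175). In TPM its repeat peptide DMSO mean was 3.23, against 169.6 for *Myc* in the same cells.

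*Mnt*, a broadly expressed MAX-dependent repressor, had 2710, 2849, 2544, 1920 and 2974 normalized counts in single peptide DMSO cells and 1532, 1535, 1620 and 1439 in repeat peptide DMSO cells. All repeat peptide libraries lay below all single peptide libraries, and experiment D had the lowest value of both groups. The log2 fold change was -0.76 (SE 0.146, edgeR adjusted p = 0.00026). Of the 9 members, 4 had groups that did not overlap (*Myc*, *Mycn*, *Mxi1* and *Mnt*), compared with 41.4% of all genes tested and the 47% called.

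The other 5 members were not called between these groups. *Max* had a log2 fold change of -0.01 with a 95% interval from -0.19 to 0.17, and *Mlx* one of 0.13 (-0.10 to 0.35). *Mlx* shares 385 bases of exon (19.3% of its own) with *Psmc3ip* on the opposite strand. *Psmc3ip* was called higher at 1.44 here, and whether the counting kept the strands apart is not given. *Mxd1* stood at -0.13 (-0.45 to 0.18). *Mxd3* stood at 0.58 with a wide interval from -0.10 to 1.26, and its single peptide DMSO libraries ranged from 294 to 1097 normalized counts. Without the highest of these, from experiment D, *Mxd3* was called at 0.96 (edgeR adjusted p = 0.00823). *Mxd4* stood at -0.30 (-0.68 to 0.09, edgeR adjusted p = 0.185) and was lower in 4 of 4 experiments. With the experiment as a block, *Mxd4* was called at -0.28 (edgeR adjusted p = 0.0359). In that fit the lone libraries of experiments E and F take no part in the comparisons.

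**Figure D2:**
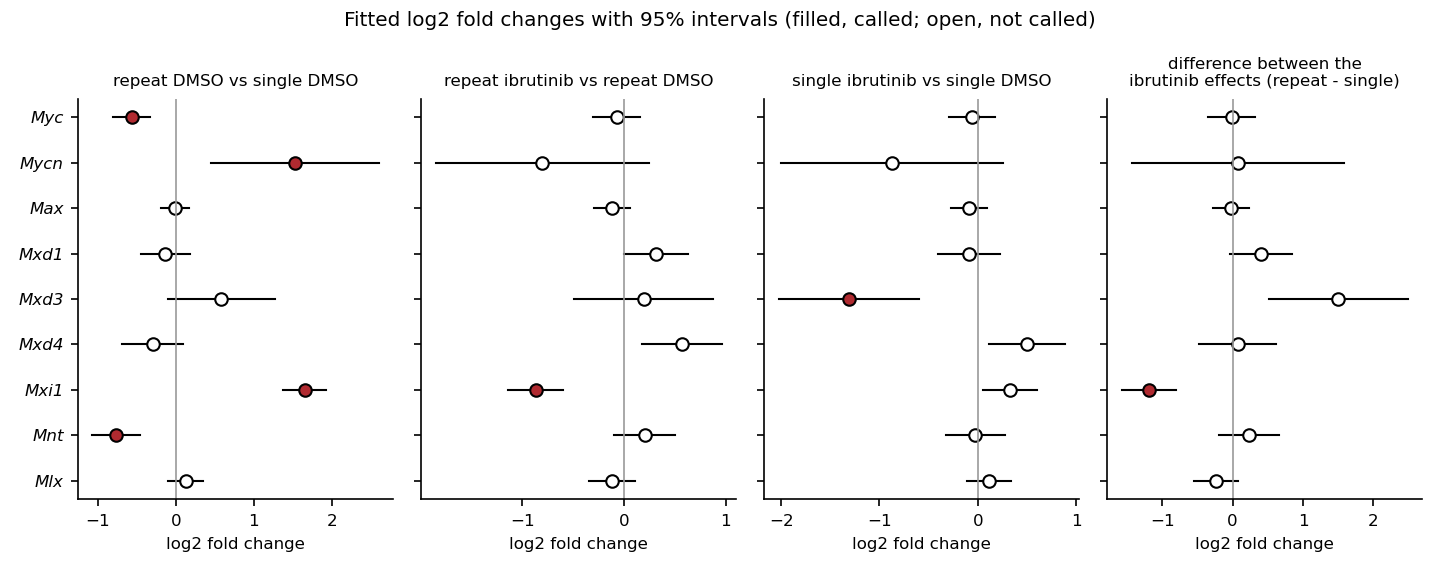
Fitted log2 fold changes (x axes) of the 9 members (y axis) with 95% intervals for repeat against single peptide with DMSO, for ibrutinib in repeat peptide cells and in single peptide cells, and the difference between these ibrutinib effects. Filled points were called and open points were not; *Mxi1* is filled at 1.65, at -0.87 and, for the difference, at -1.19.

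Ibrutinib against DMSO in repeat peptide stimulated cells asked how the drug changed the network in exhausted cells. *Mxi1* fell, and it was the only member called, 1 of 9, where 726 of 12255 genes (5.92%) were called. *Mxi1* had 1483, 1291, 2093 and 1838 normalized counts with DMSO and 822, 784, 1065, 984 and 939 with ibrutinib (experiments A to D and E). All ibrutinib libraries lay below all DMSO libraries, and the log2 difference within experiments was -0.85, -0.72, -0.97 and -0.90. The fitted log2 fold change was -0.87 (SE 0.129, edgeR adjusted p = 0.000524), so that *Mxi1* RNA fell by 45.2%. After ibrutinib, *Mxi1* still stood above the single peptide DMSO cells, by a log2 fold change of 0.78 (SE 0.124, edgeR adjusted p = 0.000104), with no overlap between these groups. These groups did not overlap for 19.9% of all genes tested.

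*Myc* had 7658, 6808, 6897, 6414 and 6142 normalized counts in repeat peptide ibrutinib cells of experiments A to E. These values overlapped with the 6415 to 7624 of the DMSO cells, and the log2 fold change was -0.07 with a 95% interval from -0.31 to 0.16 (edgeR adjusted p = 0.755). *Mycn* had 136, 76.2, 138, 144 and 21.4 normalized counts with ibrutinib, all below the lowest DMSO value of 151. Its log2 fold change of -0.80 had an interval from -1.85 to 0.25 and was not called (edgeR adjusted p = 0.373). *Mycn* and *Mxi1* were the 2 members whose groups did not overlap, where 10.1% of all genes tested did not overlap and 5.92% were called. Experiment E had the lowest *Mycn* value and also the lowest *Myc* value of that group.

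*Mxd4* encodes an MXD repressor associated with cells that leave the cell cycle. It had 3138, 3962, 2650 and 2366 normalized counts in repeat peptide DMSO cells and 4258, 6069, 3544, 3184 and 5458 with ibrutinib (A to D and E). The ranges overlapped because the experiments differed in level, yet *Mxd4* was higher with ibrutinib in 4 of 4 experiments, by log2 differences of 0.44, 0.62, 0.42 and 0.43. Without a block the log2 fold change was 0.57 (SE 0.186) and was not called (edgeR adjusted p = 0.0736). With the experiment as a block it was 0.48 (SE 0.111) and was called (edgeR adjusted p = 0.00805). Without the DMSO library of experiment B or the ibrutinib library of C or D, *Mxd4* was called without a block as well, with a lowest adjusted p of 0.0287 in edgeR, and DESeq2 called it at an adjusted p of 0.0361. The block raised the number of called genes from 726 to 1694 of 12255 (13.8%).

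The other members were not called in repeat peptide cells. *Mxd1*, which is known to rise as cells differentiate, had 472, 479, 585 and 559 normalized counts with DMSO and 708, 703, 659, 568 and 618 with ibrutinib. It was higher in 4 of 4 experiments, at a log2 fold change of 0.31 with an interval from 0.00 to 0.63 (edgeR adjusted p = 0.234). *Mnt* stood at 0.20 (-0.10 to 0.50), *Mxd3* at 0.19 (-0.49 to 0.88), *Max* at -0.12 (-0.30 to 0.06) and *Mlx* at -0.12 (-0.34 to 0.10). The median log2 fold change over the 9 members was -0.07, against 0.00 over all genes.

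Ibrutinib against DMSO was also compared in single peptide stimulated cells. *Mxd3* was lower with ibrutinib, and it was the only member called, 1 of 9, where 373 of 12255 genes (3.04%) were called. *Mxd3*, an MXD protein known to be expressed in S phase of dividing cells, had 438, 294, 719, 1097 and 313 normalized counts with DMSO (A, B, C, D and F). It had 154.5, 164, 356 and 249.6 with ibrutinib (A to D). The ranges overlapped, since the 356 of experiment C was above the DMSO values of experiments B and F, but *Mxd3* was lower in 4 of 4 experiments. The log2 fold change was -1.31 (SE 0.341, edgeR adjusted p = 0.0414). This call depended on the libraries included. It was lost without the DMSO library of experiment C or D and without the ibrutinib library of experiment A, B or D, with log2 fold changes from -1.60 to -0.93 and adjusted p up to 0.157 over the 9 fits that each left out a library. It was also lost without the filter on low counts (edgeR adjusted p = 0.112), with an offset for effective length (edgeR adjusted p = 0.0528) and in a fit of only the compared groups (edgeR adjusted p = 0.148). The call was kept with the experiment as a block, at -1.40 (edgeR adjusted p = 0.00992), and by DESeq2, at -1.33 (DESeq2 adjusted p = 0.00203).

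*Mxd4* in single peptide cells had 4218, 4223, 2753, 3450 and 3954 normalized counts with DMSO and 5919, 5391, 4845 and 4894 with ibrutinib. Every ibrutinib library lay above every DMSO library. The log2 fold change was 0.50 (SE 0.183, edgeR adjusted p = 0.188) without a block and was not called, and it was 0.54 (SE 0.110) with the experiment as a block and was called (edgeR adjusted p = 0.00439). The block raised the number of genes called in single peptide cells from 373 to 1114 (9.09%). *Mxi1* had 666, 641, 751 and 623 normalized counts with ibrutinib, all above the 481 to 589.5 with DMSO, with a log2 fold change of 0.33 that was not called (SE 0.131, edgeR adjusted p = 0.246). *Mxd4* and *Mxi1* were the 2 of 9 members without overlap, where 6.39% of all genes did not overlap and 3.04% were called.

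*Myc* was not called in single peptide cells. It had 8994, 9624, 12570 and 9398 normalized counts with ibrutinib, and its log2 fold change was -0.06 with an interval from -0.29 to 0.18 (edgeR adjusted p = 0.904). *Mycn* had 3.79, 28.1, 57.5 and 47.2 normalized counts with ibrutinib, which overlapped with DMSO, and a log2 fold change of -0.87 (-2.0 to 0.26). In experiment A this was only 4 expected counts. *Mxd1*, *Mnt*, *Max* and *Mlx* stood between -0.09 and 0.12, with intervals within -0.40 and 0.34.

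Whether ibrutinib acted differently by stimulation was tested as the difference between its effects in repeat and in single peptide cells. *Mxi1* was the only member called, 1 of 9, where 154 of 12255 genes (1.26%) were called. Ibrutinib went with lower *Mxi1* in repeat peptide cells (-0.87) and with a log2 fold change of 0.33 in single peptide cells, a difference of -1.19 (SE 0.184, edgeR adjusted p = 0.00192). The direction of this difference was the same in all 18 fits that each left out a library, and *Mxi1* was called in each. For *Mxd3* the difference was 1.5 (SE 0.470) and was not called (edgeR adjusted p = 0.15). With the experiment as a block it was 1.57 (SE 0.413) and was called (edgeR adjusted p = 0.0427), when 679 genes were called in all, and DESeq2 called it without a block. For *Mxd4* the difference was 0.07 (-0.47 to 0.62) and for *Myc* -0.02 (-0.35 to 0.32).

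In the presence of ibrutinib, repeat against single peptide cells had 5 of 9 members called, where 38.4% of all genes were called. *Mxd3* was higher by 2.09 (SE 0.349, edgeR adjusted p = 0.000111), with 788 to 1265 normalized counts against 154.5 to 356, and *Mycn* by 1.60 (SE 0.542, edgeR adjusted p = 0.0238). The call of *Mycn* was lost without the repeat peptide library of experiment C or D or the single peptide library of experiment B (edgeR adjusted p up to 0.0623) and in a fit of only these groups (edgeR adjusted p = 0.0672). *Mxi1* was higher by 0.46 (SE 0.132, edgeR adjusted p = 0.00933). *Myc* was lower by a log2 fold change of -0.58 (SE 0.112, edgeR adjusted p = 0.000419) and *Mnt* by one of -0.54 (SE 0.143, edgeR adjusted p = 0.00548). Repeat peptide ibrutinib cells against single peptide DMSO cells had 3 members called, where 32.9% of genes were called: *Mxi1* at 0.78, *Myc* at -0.64 and *Mnt* at -0.56. In the first of these comparisons *Mxd4* was called with the experiment as a block, at -0.34 (edgeR adjusted p = 0.0145), and *Mxd1* without the single peptide library of experiment B, at 0.40 (edgeR adjusted p = 0.0476). In the other, *Mxd3* stood at 0.78 (edgeR adjusted p = 0.055) and was called without the repeat peptide library of experiment B or the single peptide library of C or D, at up to 1.16, and by DESeq2 at 0.79. These comparisons share libraries with those above, so their values stand side by side and are not separate evidence.

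The normalized counts ordered the 4 groups differently for each member. For *Mxi1* the order was repeat peptide DMSO, repeat peptide ibrutinib, single peptide ibrutinib and single peptide DMSO, and no neighbours in that order overlapped. Among all genes tested, 10.1% did not overlap between the repeat peptide groups, 34.3% between the ibrutinib groups and 6.39% between the single peptide groups. For *Myc* both single peptide groups lay above both repeat peptide groups, with overlap only between DMSO and ibrutinib cells of the same stimulation. For *Mnt*, the neighbours single peptide ibrutinib and repeat peptide ibrutinib cells did not overlap, but only just, since both edges round to 2210. Single peptide DMSO cells reached down to 1920 for *Mnt*, below the highest repeat peptide ibrutinib value. For *Mycn*, only repeat peptide DMSO cells stood clear of the next group. For *Max*, *Mlx*, *Mxd1*, *Mxd3* and *Mxd4*, every pair of neighbours overlapped.

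The balance of activator and repressor RNA was described by the TPM of *Myc* divided by the summed TPM of *Mxd1*, *Mxd3*, *Mxd4*, *Mxi1* and *Mnt*. This ratio was 2.19, 2.69, 3.12, 1.88 and 2.46 in single peptide DMSO cells (A, B, C, D and F) and 1.80, 2.0, 2.89 and 2.24 in single peptide ibrutinib cells (A to D). It was 1.56, 1.49, 1.63 and 1.76 in repeat peptide DMSO cells (A to D) and 1.38, 1.19, 1.55, 1.23 and 1.10 in repeat peptide ibrutinib cells (A to E). On this scale each repeat peptide library lay below each single peptide library. DMSO and ibrutinib cells of the same stimulation overlapped, but within experiments the ratio was lower with ibrutinib in 4 of 4 for repeat peptide cells and in 3 of 4 for single peptide cells, all but D. As a score over the chosen members, the ratio was given no test. It depends on the scale. With normalized counts, which are not per length, the group means were 1.33, 1.11, 0.938 and 0.78 in the same order, and the separation by stimulation was lost, since single peptide ibrutinib cells reached down to 0.897 and repeat peptide DMSO cells up to 1.06.

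The repressors that made up this sum also differed between the groups. *Mxd4* held 43.2% ± 7.42 (SD, n = 5) of the summed repressor TPM in single peptide DMSO cells and 57.4% ± 2.92 (n = 4) with ibrutinib. *Mxd3* held 22.4% ± 11.8 and 9.26% ± 4.20 in these groups, and 33.8% ± 4.49 (n = 4) and 33.2% ± 7.45 (n = 5) in repeat peptide cells with DMSO and with ibrutinib. *Mxi1* held 13.9% ± 3.69 in repeat peptide DMSO cells and 4.54% to 6.45% on average in the other groups. *Mnt* held 24.6% ± 5.04 in single peptide DMSO cells and 14.0% ± 1.51 in repeat peptide DMSO cells.

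**Figure D3:**
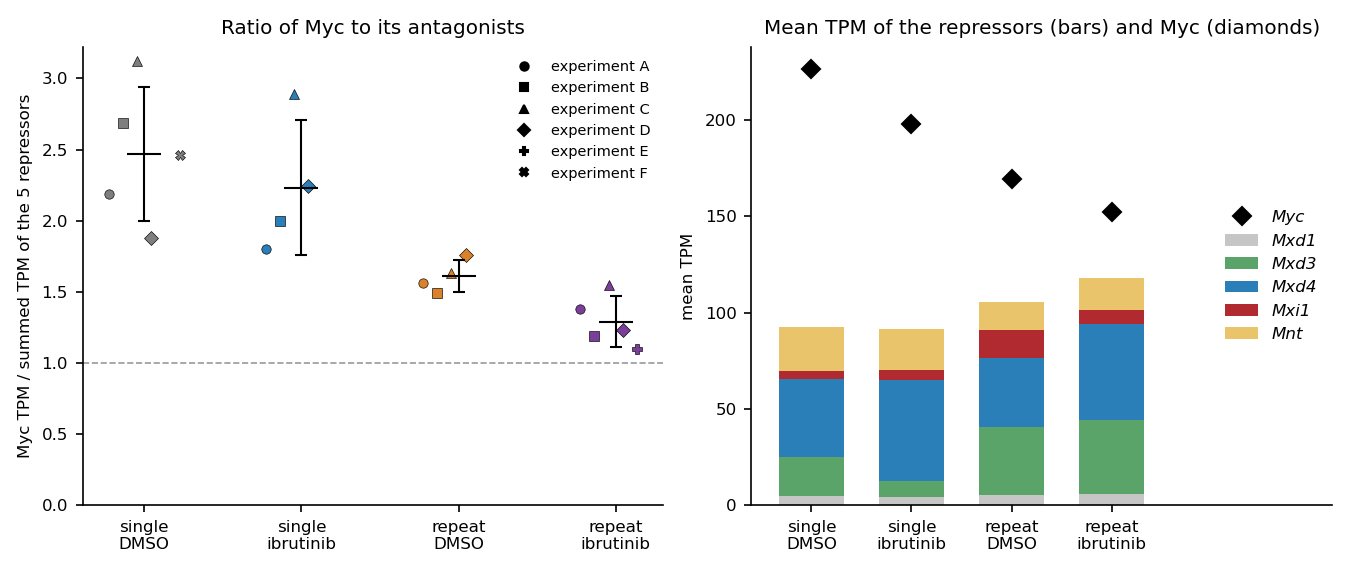
Left, *Myc* TPM over the summed TPM of *Mxd1*, *Mxd3*, *Mxd4*, *Mxi1* and *Mnt* in each library (points by experiment, bars are mean and SD, dashed line at 1). Right, group mean TPM of the 5 repressors (stacked bars) and of *Myc* (diamonds); repeat peptide ibrutinib libraries lie at 1.10 to 1.55 and overlap with those of repeat peptide DMSO cells.

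Because *Mxd3* is known from S phase, genes of S phase and mitosis were counted beside it. A list of 15 such genes (*Mki67*, *Top2a*, *Pcna*, *Mcm2*, *Mcm3*, *Mcm5*, *Mcm6*, *Mcm7*, *Ccna2*, *Ccnb1*, *Cdk1*, *Rrm2*, *Tyms*, *Birc5* and *Plk1*) was called higher in 15 of 15 in repeat against single peptide DMSO cells. Of all genes tested, 22.8% were called higher in that comparison. In single peptide cells ibrutinib lowered 9 of 15, where 2.69% of all genes were called lower, and 14 of 15 with the experiment as a block. *Mki67* (log2 fold change -1.37, edgeR adjusted p = 0.00899) and *Rrm2* (-1.24, edgeR adjusted p = 0.0169) fell most. The 9 became 2 to 13 when libraries were left out in turn, with changes of over 1.5 times without the DMSO library of experiment A, C or D or the ibrutinib library of experiment A, B or D. In repeat peptide cells ibrutinib left 0 of 15 called in edgeR and in DESeq2, with a median log2 fold change of -0.35, where *Mxd3* stood at 0.19. The summed TPM of these genes was nevertheless lower with ibrutinib in each of experiments A to D. It was 3634, 3042, 3372 and 3247 with DMSO and 2859, 2257, 2896 and 3022 with ibrutinib.

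The TPM of *Mxd3* and the summed TPM of these 15 genes were set side by side in each library. With single peptide and ibrutinib, *Mxd3* was at 6.20 to 10.7 TPM and the sum at 586.5 to 741 TPM. With single peptide and DMSO, *Mxd3* was at 11.3 to 33.6 TPM and the sum at 801 to 1498. In repeat peptide DMSO cells *Mxd3* was at 31.2 to 42.0 TPM and the sum at 3042 to 3634, in opposite orders, with the lowest *Mxd3* beside the highest sum in experiment A and the reverse in B. Among repeat peptide ibrutinib cells, experiment E had the lowest *Mxd3* (26.8 TPM) and the lowest sum (1444), and experiments A to D lay at 36.1 to 47.4 TPM with sums of 2257 to 3022. The highest *Mxd3* values of all libraries, 45.7 and 47.4 TPM in A and D of this group, thus stood beside sums below those of every repeat peptide DMSO library. The part of cell division in the *Mxd3* differences was not tested. *Mxd3* shares 105 bases of exon (4.43% of its own) with *Prelid1* on the opposite strand. *Prelid1* had log2 fold changes of -0.14 with ibrutinib in single peptide cells and -0.36 with ibrutinib in repeat peptide cells. In repeat against single peptide DMSO cells it had one of 0.87. Reads of *Prelid1* in this stretch could count for *Mxd3* if the counting did not keep the strands apart.

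**Figure D4:**
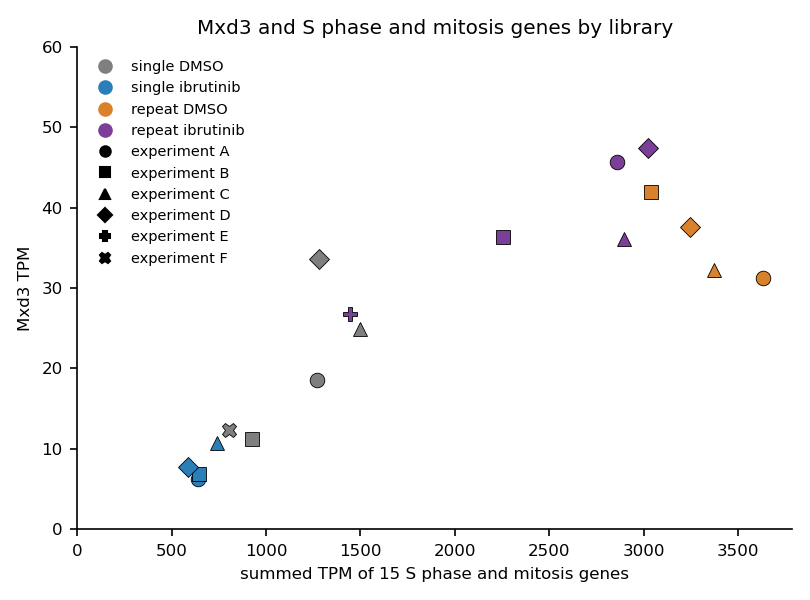
*Mxd3* TPM (y axis) against the summed TPM of 15 S phase and mitosis genes (x axis) in the 18 libraries, coloured by group and shaped by experiment. Single peptide ibrutinib libraries lie at the lower left, at 6.20 to 10.7 TPM of *Mxd3*, and repeat peptide libraries, apart from that of experiment E, at the right.

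The rest of the network comprises other MAX and MLX partners and the corepressors that MXD proteins recruit. Of 8 tested genes, 4 were called in repeat against single peptide DMSO cells, 3 higher and 1 lower, near the 47% of all genes called. *Sap30*, a subunit of the SIN3 complex, rose by 1.12 (SE 0.286, edgeR adjusted p = 0.00297) and the histone deacetylase *Hdac1* by 0.60 (edgeR adjusted p = 7.17e-05). The corepressor *Ncor1* was lower at -0.35 (edgeR adjusted p = 0.017). Ibrutinib left 0 of 8 called in either kind of cell, by edgeR and by DESeq2. Without the repeat peptide DMSO library of experiment D, the count for repeat against single peptide was 2 of 8. *Mycl* and *Mlxipl* were too low to be tested.

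Of 12 coactivators and partners of MYC, 7 were called in repeat against single peptide DMSO cells, 2 higher and 5 lower. Of all genes tested, 47% were called. *Kat2a*, a histone acetyltransferase that MYC recruits, was lower at -0.56 (edgeR adjusted p = 0.00042), and *Paf1*, of the polymerase-associated PAF complex, at -0.42 (edgeR adjusted p = 0.00673). *Hcfc1* rose by 0.44 and *Actl6a* by 0.40. With ibrutinib, 0 of 12 were called in either kind of cell by edgeR and by DESeq2.

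Of 14 enzymes and regulators that phosphorylate, ubiquitinate or stabilise MYC protein, 10 were called in repeat against single peptide DMSO cells, 3 higher and 7 lower, where 47% of all genes were called. *Usp28*, a deubiquitinase that protects MYC, was lower at -1.90 (SE 0.159, edgeR adjusted p = 2.68e-08), and *Usp36* at -1.12. *Aurka* rose by 2.02 and *Cip2a*, which shields MYC from the phosphatase PP2A, by 1.59. In repeat peptide cells ibrutinib raised 3 of 14, *Usp28* (0.62, edgeR adjusted p = 0.0195), *Pim1* (0.59, edgeR adjusted p = 0.00392) and *Ppp2r5a* (0.31, edgeR adjusted p = 0.0493), and 5 were called with the block. In single peptide cells it lowered 2 of 14, *Cip2a* (-1.10, edgeR adjusted p = 0.00706) and *Aurka* (-1.0, edgeR adjusted p = 0.0373). Leaving out libraries lowered the count of 3 to as few as 1, without the DMSO library of experiment A, C or D or the ibrutinib library of A or B, and that of 2 to as few as 1, without the DMSO library of A, C or D or the ibrutinib library of A, B or D. These are RNA levels, and no MYC protein was measured in these libraries. Of all genes tested, ibrutinib called 5.92% in repeat peptide cells and 3.04% in single peptide cells.

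The genes that MYC is known to induce did not follow *Myc* RNA as a single group. In repeat against single peptide DMSO cells, 10 of 25 genes of ribosome biogenesis were called, 9 lower and 1 higher, with a median log2 fold change of -0.25 against 0.00 over all genes. *Rrp12* was lower at -1.92 (SE 0.106, edgeR adjusted p = 2.38e-10) and *Fbl*, the methyltransferase of box C/D particles, at -0.77 (edgeR adjusted p = 0.000176), whereas *Noc4l* was higher at 0.30. Of 22 genes of metabolism and translation, 11 were called and all 11 were higher, with a median of 0.35. *Tfrc*, the transferrin receptor, rose by 1.42 (SE 0.170, edgeR adjusted p = 2.12e-06) and *Ldha*, the lactate dehydrogenase subunit, by 1.24 (edgeR adjusted p = 0.000195). All 8 cell cycle genes were called, 7 higher, led by *Tert* (1.38) and *Ccne1* (0.97), and *Ccnd2* lower at -0.51 (edgeR adjusted p = 0.00126). The shares called in these lists stand beside the 47% of all genes called in this comparison, 22.8% higher and 24.2% lower.

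A minority of these induced genes were called with ibrutinib. Over all genes tested, ibrutinib called 5.92% in repeat peptide cells, 4.01% higher and 1.92% lower. In single peptide cells it called 3.04%, 0.351% higher and 2.69% lower. In repeat peptide cells it lowered 3 of 22 genes of metabolism and translation, *Tfrc* (-0.77, edgeR adjusted p = 0.00918), the amino acid transporter *Slc7a5* (-0.57, edgeR adjusted p = 0.0319) and the folate enzyme *Mthfd2* (-0.42, edgeR adjusted p = 0.034), and 6 were called lower with the block. It lowered 1 of 8 cell cycle genes, *Ccne1* (-0.55, edgeR adjusted p = 0.016). It raised 1 of 25 genes of ribosome biogenesis, *Rrp12* (0.54, edgeR adjusted p = 0.00313). In single peptide cells it lowered *E2f1* (-0.82, edgeR adjusted p = 0.0165) and *Ccne1* (-0.55, edgeR adjusted p = 0.03), 2 of 8 cell cycle genes, or 5 of 8 with the block, and *Mthfd2* (-0.49, edgeR adjusted p = 0.0257), 1 of 22. None of the 25 ribosome biogenesis genes was called there by edgeR or by DESeq2, and 2 were called lower with the block. Over the 9 fits that each left out a library, 0 to 2 of 8 cell cycle genes and 0 to 1 of 22 metabolic genes were called in single peptide cells. The first count changed without any ibrutinib library or the DMSO library of experiment A or C, and the other without the DMSO library of experiment C or D or the ibrutinib library of A, B or D. In repeat peptide cells 1 to 4 of 22 metabolic genes were called, with changes without the DMSO library of experiment C or D or the ibrutinib library of A, B or E, and *Ccne1* was lost without the DMSO library of D or the ibrutinib library of B.

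The genes listed here as repressed by MYC also went in both directions. In repeat against single peptide DMSO cells 7 of 11 were called, 5 higher and 2 lower, where 47% of all genes were called. *Cdkn1a*, the cell cycle inhibitor p21, rose by 4.76 (SE 0.508, edgeR adjusted p = 5.25e-07) and *Gadd45b*, a stress response gene, by 0.65 (edgeR adjusted p = 0.045). *Klf2*, a quiescence and trafficking factor of T cells, was lower at -2.98 (edgeR adjusted p = 2.5e-08), and *Cdkn1b*, the inhibitor p27, at -1.07. Without the repeat peptide library of experiment C or the single peptide library of experiment F, as few as 4 were called. With ibrutinib in repeat peptide cells, *Cdkn1a* was lower at -2.51 (SE 0.456, edgeR adjusted p = 0.00242) while *Klf2* rose by 1.42 (SE 0.232, edgeR adjusted p = 0.00107) and *Cdkn1b* by 0.63 (edgeR adjusted p = 0.0143), 3 of 11 called. In single peptide cells 1 of 11 was called, the antiproliferative gene *Btg2*, higher by 0.53 (edgeR adjusted p = 0.0378), and 4 were called with the block. *Btg2* alone made this count, which was 0 to 2 when libraries were left out in turn, with changes without any ibrutinib library or the DMSO library of experiment A, C or D. Of the 4 glucose-responsive targets of MLX, *Txnip* was lower at -0.83 (edgeR adjusted p = 0.0053) and *Klf10* higher at 0.85 (edgeR adjusted p = 0.00802) in repeat against single peptide DMSO cells. Ibrutinib left 0 of 4 called in either kind of cell by edgeR and by DESeq2, and 1 higher in each with the block. The ibrutinib counts of these lists stand beside 5.92% of all genes called in repeat peptide cells and 3.04% in single peptide cells.

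**Figure D5:**
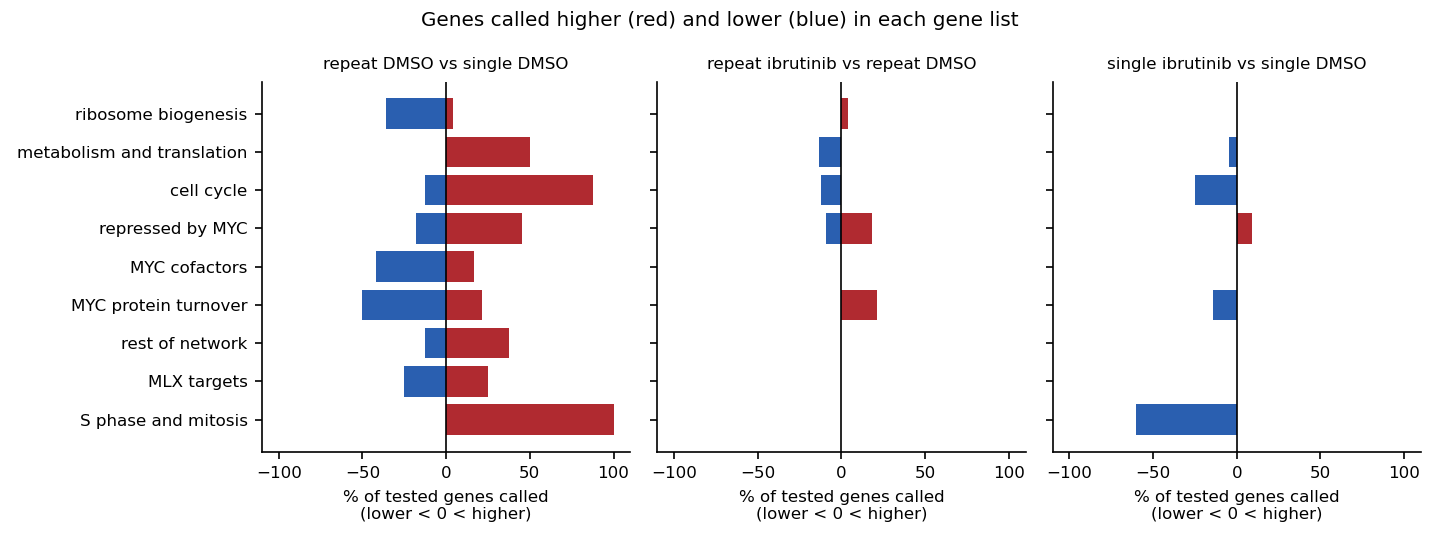
Percent of the tested genes of each list called higher (red, right) or lower (blue, left) in 3 comparisons. With repeat peptide, genes of ribosome biogenesis lean to lower (9 of 25) and those of metabolism and translation to higher (11 of 22), and ibrutinib called fewer genes in each kind of cell. In repeat against single peptide DMSO cells, 24.2% of all genes tested were called lower and 22.8% higher.

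The differences between the ibrutinib effects in repeat and single peptide cells were called for 0 genes of all these lists in edgeR. DESeq2 called 1 gene of ribosome biogenesis and 1 of the MYC-repressed genes. With the experiment as a block, 6 of the 15 S phase and mitosis genes, 2 cell cycle genes, 1 gene of ribosome biogenesis and 1 of MYC turnover were called, all with a higher value for repeat peptide cells.

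The genes with patterns most like those of *Myc* and *Mxi1* were found over the 18 libraries by the root mean square difference between log2 CPM values, each centred on its own mean. For *Myc* the 5 nearest were *Pus1* (0.123), *Suclg2* (0.125), *Ddx54* (0.127), *Wdr4* (0.137) and *Axin1* (0.139), where the median over all genes was 0.473. Like *Myc*, they had log2 fold changes of -0.51 to -0.58 in repeat against single peptide DMSO cells. For *Mxi1* the 5 nearest were *Mcu* (0.193), *Elk3* (0.197), *Cited2* (0.207), *Icos* (0.213) and *Slc19a2* (0.217), with a median of 0.742 over all genes. All 5 were higher in repeat against single peptide DMSO cells, at 1.22 to 1.47, and stood at -0.53 to -0.76 with ibrutinib in repeat peptide cells. These are descriptions of likeness over the same libraries.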

How the data were processed

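RNA-seq was done on 18 bulk libraries of purified OT-I CD8+ T cells, grouped by the stimulation and treatment given in the sample labels. The authors trimmed the reads with Trim Galore, mapped them to GRCm38 with STAR within RSEM 1.3.1 and used SAMtools 1.10. The deposited tables hold, per gene, the authors' expected counts, which are estimated counts of reads not normalized for depth and which share reads between similar genes. They also hold TPM values, which the authors scaled to the same total per library and which were used here only for levels and ratios, and the effective length. The reads were made with a directional kit; whether the counting used the strand is not given in the sources used here.

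Expected counts were rounded and restricted to the 27903 protein-coding or lncRNA genes of GENCODE M21, which matched 45143 of the 45706 identifiers and held 98.5% of the counts. In R 4.3.3, edgeR 4.0.16 kept 12255 genes with filterByExpr, scaled the libraries by TMM (factors 0.922 to 1.07) and fitted all 4 groups together with glmQLFit (robust) without a block. Contrasts were tested with glmQLFTest, two-sided, and p-values were adjusted by Benjamini-Hochberg over all 12255 genes. A gene was called at an adjusted p below 0.05 if its normalized counts averaged 50 or more and its log2 fold change was beyond 0.2 in either direction. Normalized counts are counts divided by TMM-scaled library size, times the mean size. The log2 CPM used a prior count of 2. The members, the gene lists and the tests were chosen with earlier results of these data known. Named were all members, up to 2 called genes with the largest rise and 2 with the largest fall per list and comparison, and the 5 genes nearest to *Myc* and to *Mxi1*, the member with the largest opposite change. Where a count was small, its other genes were named after their values were seen.

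The labels do not say that the cultures came from separate mice, so the p-values measure the spread between these libraries. Libraries of the same group differed far beyond sampling noise. All 24 pairs of libraries of the same experiment in different groups had deviations from their group means that correlated above 0.1 (0.16 to 0.494). The experiments, read from the genotype entry, thus paired the libraries, but the main fit did not use this pairing. Its p-values are unpaired, and pairing entered only as an alternative fit and in the differences within experiments. Alternatives were an edgeR fit blocked on experiment, DESeq2 1.42.0 (size factors and Wald test), no filter, all gene types, an offset for the effective length, other thresholds, fits of only the compared groups and each library left out. A fit of experiments A to D alone was chosen after seeing the data. On simulated counts for repeat peptide cells with and without ibrutinib (12086 genes, 200 changed), edgeR called 31.3%, 71.6% and 95.5% of the genes changed by 0.5, 1 and 2 on the log2 scale and 4 unchanged genes. On the same counts DESeq2 called 149 changed and 21 unchanged genes. The simulation held no differences between experiments, unlike the data. With a median of 27420965 counts per library, counting error is small for all members but *Mycn*.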

Additional observations from a re-analysis of the deposited data

Results flagged for a closer look

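The ibrutinib effect on *Mxi1* differed between repeat and single peptide stimulated cells by a log2 difference of -1.19 (SE 0.184, edgeR adjusted p = 0.00192), where 1.26% of all genes were called for such a difference.

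Among the 36 sets of member and group, 2 held a library set apart from the others of its group, at a gap of over 0.829 of the range for 4 libraries or 0.71 for 5, and chance alone flags about 1 in 20 sets. Both concern *Mlx*. In repeat peptide DMSO cells experiment A had 1008 normalized counts (gap 0.845 of the range) below the other 3, and in single peptide ibrutinib cells experiment B had 1093 (gap 0.853) below the other 3. No call of *Mlx* rested on these libraries, since it was called in no comparison.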

How the results depend on the processing

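Of the calls of members, those of *Mxi1*, *Myc* and *Mnt* held under every alternative but the threshold of 1 on the log2 fold change. Over the alternatives, 296 repeats of called member values gave 275 with the same direction and call, 21 without the call and 0 with the other sign. Of 811 repeats of values not called, 744 stayed so, 16 were called and 51 changed sign.

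For ibrutinib in repeat peptide cells, 1 member was called, 2 by DESeq2 and 2 with the replicate block (the experiment), 0 at the threshold of 1, and 1 to 2 with a library left out. In single peptide cells 1 was called, 2 with the block, 0 without the filter, with the length offset or with only the compared groups, and 0 to 1 with a library left out. At the threshold of 1, repeat against single peptide kept 2 with DMSO and 2 with ibrutinib, and 0 for repeat peptide ibrutinib against single peptide DMSO. For the difference of effects, DESeq2 and the block each called 2. The block moved 16 of 66 list counts by over 1.5 times. Beyond the values given with the comparisons, it changed no other call of a member.

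Over all genes, DESeq2 called 1152, 616 and 350 for ibrutinib in repeat cells, in single cells and for their difference, the block 1694, 1114 and 679, and fits of only the compared groups 464 and 181. The threshold of 1 left 237, 202, 1994, 1461 and 1109 in the 5 comparisons. Without the DMSO library of experiment C or D or the ibrutinib library of A, ibrutinib in repeat cells called 393, 354 and 478. In single cells it called 198 and 239 without DMSO C and D, and 131, 205 and 152 without ibrutinib A, B and D. The difference of effects called 84 without repeat DMSO C and 89 without single ibrutinib D. With experiments A to D alone, 1 of 22 metabolic genes was called with ibrutinib in repeat cells, 4 of 8 cell cycle and 14 of 15 S phase and mitosis genes in single cells, and 4 of 11 MYC-repressed genes in repeat against single peptide DMSO cells.

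Log2 values that changed sign were those of *Mnt* with ibrutinib in single cells (0.03 with the block and 0.03 in experiments A to D), *Max* in repeat against single DMSO cells (0.00070 with all gene types) and *Mlx* between the ibrutinib groups (0.00037 with the length offset). For the difference of effects they were *Myc* (0.0018 with DESeq2 size factors, 0.0049 without the filter, 0.0017 with DESeq2, 0.028 with the block, 0.0078 with the length offset and 0.026 in A to D), *Max* (0.031 with the block and 0.028 in A to D) and *Mxd4* (-0.062 with the block and -0.030 in A to D). With a library left out the ranges were -0.19 to 0.0020 for *Myc*, -0.22 to 0.015 for *Mxd1* and -0.12 to 0.030 for *Mnt* with ibrutinib in single cells. *Max* ranged from -0.090 to 0.033 in repeat against single DMSO cells and from -0.053 to 0.016 between the ibrutinib groups, and *Mlx* from -0.057 to 0.062 between repeat ibrutinib and single DMSO cells. For the difference of effects the ranges were -0.075 to 0.13 for *Myc*, -0.28 to 0.47 for *Mycn*, -0.069 to 0.079 for *Max* and -0.036 to 0.25 for *Mxd4*. The log2 ratio of *Myc* to the repressors was 1.28, 1.14, 0.68 and 0.36 (single DMSO, single ibrutinib, repeat DMSO, repeat ibrutinib), 0.40, 0.12, -0.10 and -0.37 with normalized counts and 1.69, 1.52, 0.90 and 0.57 without *Mnt*. Of the 5 genes nearest to *Myc*, 4 were shared with log2(TPM + 1) and 2 with the mean of each experiment removed, and of those nearest to *Mxi1* 3 and 4. The cause of these changes was not tested. Depth limits *Mycn*, with as few as 4 expected counts in a library.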
